A study of Homo sapiens with 9 samples.

Results

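Collagens are the main structural proteins of the extracellular matrix, and each is a trimer of polypeptide chains that are encoded by separate COL genes. The genes described here are all entries of the deposited count table whose symbol has the form of a collagen chain name (COL, a type number, A, a chain number). The rule found 37 genes among the 20777 listed, and it used the name only, no measured value. The table held 9 RNA-seq libraries of LX-2 cells, an immortalised human hepatic stellate cell line that was grown in DMEM with 10% fetal bovine serum, and all carry the genotype label "wide type". The 3 control libraries carry no treatment label. The 3 TGF-β libraries came from cells given transforming growth factor β (labelled day 1), and the 3 TGF-β plus uridine libraries came from cells given uridine in addition (also labelled day 1). TGF-β was given at 25 ng/ml for 12 h, and the medium was then exchanged for complete medium with uridine. The uridine dose of the sequenced cells is not given in the sources used here. LX-2 is a single line in culture, and nothing in the labels says that the libraries of a group came from separate cultures, so each p-value measures only the spread between these libraries, which may be technical.

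In the liver, hepatic stellate cells are the main source of scar collagen. When TGF-β signals through its receptors to SMAD transcription factors, these cells take on a myofibroblast-like state and make fibrillar collagen, above all types I and III. Fibrillar chains assemble into the cable-like fibrils of scar tissue, type IV chains form the sheet of the basement membrane, type VI chains form beaded filaments, type VII anchors epithelial basement membranes to the stroma, and the FACIT chains decorate fibril surfaces. Multiplexins are basement membrane collagens that carry sugar chains, and transmembrane collagens stay in the cell membrane.

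The libraries held 40539751 to 41467124 counts each, so depth was nearly equal, and 3 counts corresponded to 0.0723 to 0.0740 CPM (counts scaled to the library total). The libraries differed in how level followed the GC content of a gene. The slope of the deviation of log2 CPM on GC fraction (from 0 to 1) was 5.65, -0.73 and -4.10 in control 1, 2 and 3. Slopes were near 0 with TGF-β (-0.32 to 0.54) and intermediate with uridine (-2.69 to 2.28). Of the 12 stellate or fibroblast markers, 10 were listed. VIM had 38916 to 74990 counts, THY1 had 9510 to 14231 and PDGFRB had 450 to 1219, while RELN and HAND2 had at most 1 count and LUM at most 17. Summed normalised CPM of this list was 1283 to 1590 in control, 2368 to 2462 with TGF-β and 1981 to 2350 with TGF-β plus uridine. The epithelial or bile duct list moved as well, from 1371 to 2608 in control to 3023 to 3159 with TGF-β and 2053 to 2790 with uridine, and KRT7 made up nearly all of it with 65298 to 128005 counts, whereas EPCAM had at most 5. The macrophage list was at 34.7 to 48.2, 75.0 to 84.0 and 62.4 to 77.9 in the same order. CD68 had 1181 to 1580 counts and CSF1R had 379 to 1785, while LYZ had at most 2 and CD14 at most 12. Hepatocyte, endothelial and cartilage lists summed to at most 2.43, 3.16 and 0.390 normalised CPM. The part of these marker changes in the collagen results was not tested, and in bulk RNA a change in the number of cells of a type and a change in RNA per cell cannot be told apart.

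Of the 37 chain genes, 24 were expressed, meaning that they passed the count filter of the test, 6 were low and 7 were not expressed. A gene was called not expressed when it had 3 counts or fewer in every library. The 7 were COL1A2, COL6A6, COL11A1, COL14A1, COL19A1, COL24A1 and COL28A1. COL1A2, the gene of the α2 chain of type I collagen, had 0 counts in 8 libraries and 1 count in TGF-β 2. COL6A6, COL11A1, COL19A1, COL24A1 and COL28A1 likewise never had more than 1 count, and COL14A1 had at most 2. With 3 counts allowed for in each library, the level of COL1A2 was below 0.0143 to 0.0146 FPKM (fragments scaled to the gene's length and the library's total), a floor that covers counting error only. The low genes were COL2A1, COL4A4, COL5A3, COL8A1, COL8A2 and COL20A1. Among these, COL4A4 reached 25 counts in TGF-β 2 and COL5A3 reached 10 in TGF-β 1, COL2A1 and COL20A1 reached 8 in TGF-β plus uridine 3, COL8A2 reached 6 in TGF-β 1 and COL8A1 reached 5 in TGF-β plus uridine 2. A further 7 chains of the 44 in the class list used here (COL6A5, COL9A1, COL10A1, COL21A1, COL22A1, COL23A1 and COL25A1) had no entry in the table and were not analysed here.

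The missing chains fell unevenly over the classes. Of 11 fibrillar chain genes, 6 were expressed (COL1A1, COL3A1, COL5A1, COL5A2, COL11A2 and COL27A1), as were 5 of 6 type IV genes (all but COL4A4), 3 of 4 listed type VI genes, COL7A1, 4 of 7 listed FACIT genes (COL9A2, COL9A3, COL12A1 and COL16A1), both multiplexin genes (COL15A1 and COL18A1), both listed transmembrane genes (COL13A1 and COL17A1), COL26A1, and neither type VIII gene. Some collagens were therefore represented by a subset of their chains. COL1A1 was at least 511 to 880 times as high as COL1A2 per library in FPKM, with COL1A2 set to the 3-count floor. Type VI was represented mainly by COL6A1, whose FPKM was 9.89 to 53.7 times that of COL6A2, and type IX by COL9A2 and COL9A3.

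Levels can be compared between genes only per length, here in FPKM. COL5A1, the α1 chain of type V collagen that helps start and size fibrils, was the highest chain gene, at 25.4 ± 6.52 FPKM in control, 74.2 ± 1.11 with TGF-β and 73.9 ± 7.61 with TGF-β plus uridine (mean ± SD, n = 3). Averaged over the 9 libraries, COL4A2 (21.5 FPKM), COL5A2 (19.3), COL7A1 (16.2), COL1A1 (9.87) and COL6A1 (9.52) followed, in that order. In control the ranges of COL4A2 (7.69 to 14.7 FPKM), COL5A2 (9.40 to 29.2) and COL7A1 (6.67 to 10.9) overlapped each other and that of COL1A1 (7.34 to 8.08), except that COL5A2 stayed above COL1A1, and COL6A1 (8.71 to 8.97) lay above COL1A1. With TGF-β, COL4A2 (25.8 to 26.1), COL5A2 (19.1 to 20.5) and COL7A1 (15.9 to 16.2) separated, while COL1A1 (9.74 to 11.3) and COL6A1 (9.26 to 10.6) overlapped. No chain beyond COL4A1 averaged above 1.94 FPKM (COL4A6). COL3A1, the chain of type III collagen, averaged 0.254 FPKM and came below COL9A2, COL9A3, COL16A1 and COL12A1, among others. The FPKM of COL4A1 (2.85) rests on a gene length of 15595 bases, which is 2.36 times its longest transcript in GENCODE v29 (COL4A1-201, 6616 bases), whereas the length used for COL4A2 is 0.993 times its longest transcript. The FPKM values of COL4A1 are lowered accordingly. Other lengths differed less, at 1.49 times the longest transcript for COL9A2, 1.27 for COL5A1, 1.26 for COL6A2, 0.992 for COL6A1 and 0.883 for COL1A1. Close ranks, such as that of COL1A1 and COL6A1, and ratios and shares in FPKM depend on the lengths used.

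**Figure D1:**
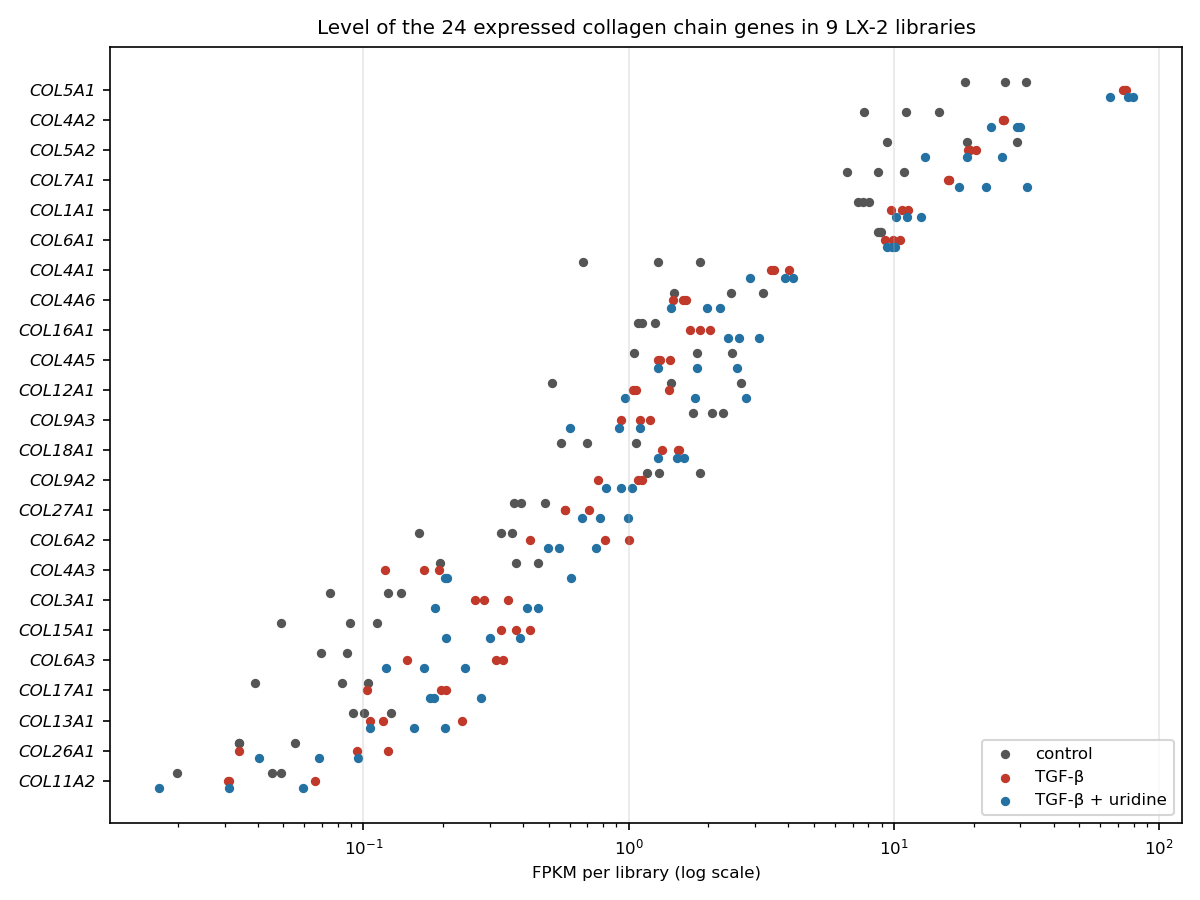
FPKM (log axis) of each of the 24 expressed collagen chain genes, with 1 point per library, coloured by group and ordered by the mean over 9 libraries. COL5A1 lies to the right of all other genes in the TGF-β libraries, between 73.0 and 75.1 FPKM, and COL6A3 in control 1 (0 counts) cannot be drawn on the log axis.

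The first comparison asked which chain genes TGF-β changed. After TGF-β, 6 of the 24 expressed chain genes rose and 0 fell (edgeR quasi-likelihood test, Benjamini-Hochberg adjusted p under 0.05 over all genes tested). The 6 were COL5A1, COL4A1, COL4A2, COL7A1, COL15A1 and COL18A1, so the called genes belong to type V, the basement membrane types and type VII. Of all 13384 genes tested, 2.42% rose and 0.964% fell. At an unadjusted p under 0.05, 12 chain genes were higher and 3 lower, against 6.69% and 5.43% of all genes. The median log2 fold change was 0.63 over the 24 chain genes and -0.05 over all genes tested. Of the 24 values, 18 were above 0, beside 5497 of all 13384. DESeq2 called 10 chain genes higher and 1 lower, beside 3.13% and 1.76% of all genes with a DESeq2 adjusted p. With the GC slope of each library as a covariate in edgeR, 13 chain genes were higher and 4 lower, beside 11.6% and 8.69% of all genes, so the number of calls in this comparison depends on that covariate. The genes called by DESeq2 beside the 6 were COL3A1, COL6A2, COL6A3 and COL16A1 (higher) and COL9A3 (lower). The GC fit called these 5 too, with COL1A1, COL17A1 and COL27A1 higher and COL4A3, COL4A6 and COL9A2 lower. Where libraries of a gene are said below to lie all above or all below control, this only describes that gene. The share of all genes so separated was not taken for the comparisons with control. An exact permutation test of 3 against 3 libraries cannot go below p = 0.1, so separation alone does not set a gene apart.

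**Figure D2:**
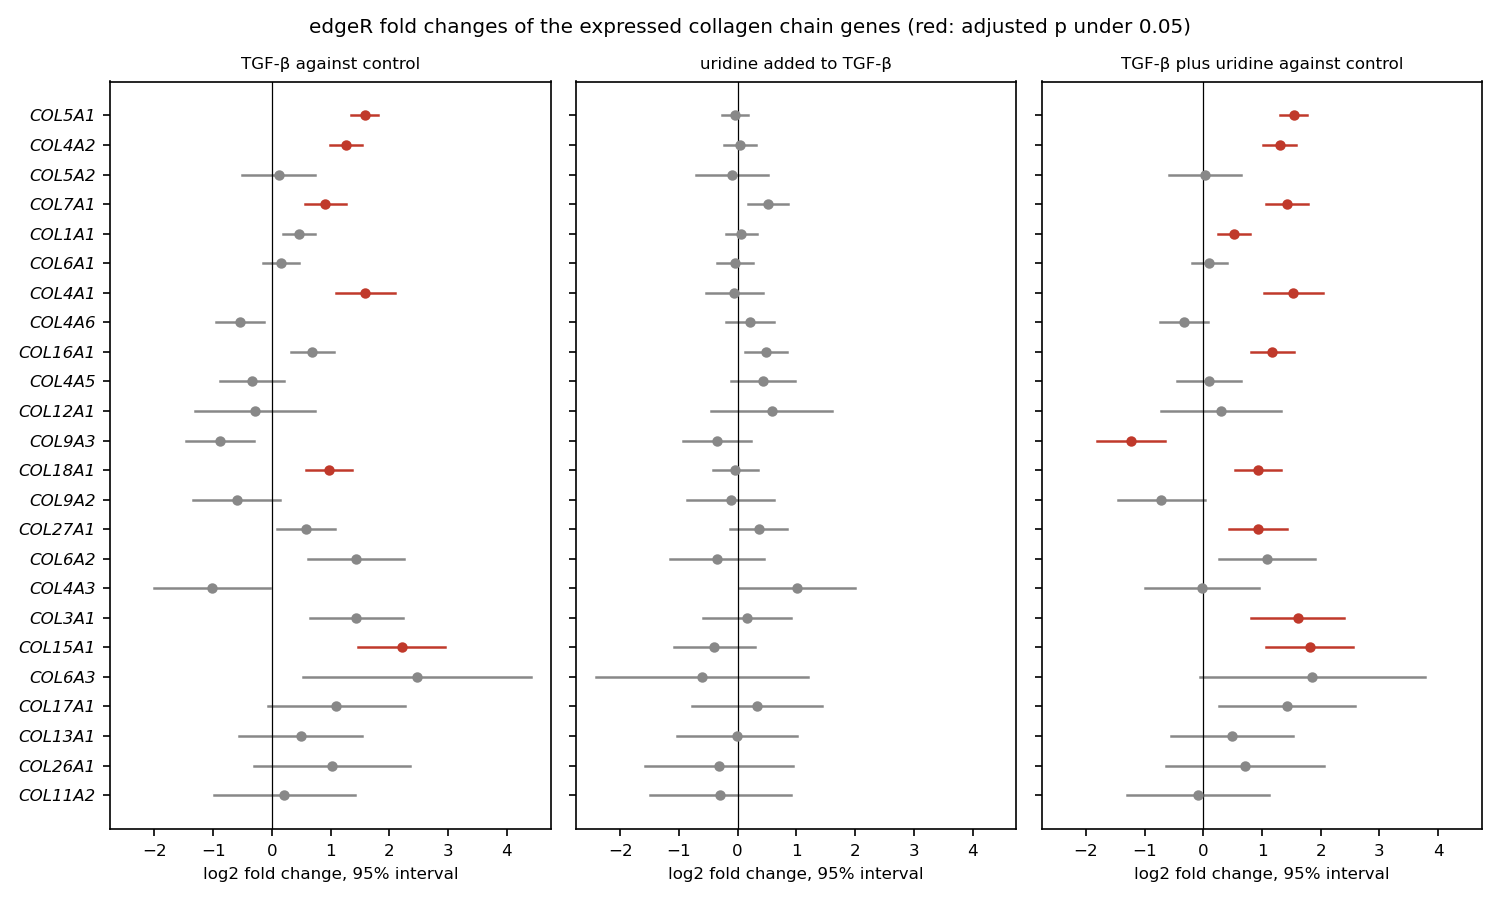
Log2 fold change with its 95% interval (edgeR) for the 24 expressed collagen chain genes in the 3 comparisons, ordered by mean FPKM, red where the adjusted p is under 0.05. In the middle panel, uridine added to TGF-β, no gene is red. COL1A1, COL3A1, COL16A1, COL27A1 and COL9A3 are red on the right but not on the left, where COL1A1 lies at 0.46 and COL3A1 at 1.44.

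COL5A1 was the fibrillar chain gene that rose. Its normalised CPM was 242, 272 and 291 in control 1 to 3, 807, 804 and 801 with TGF-β, and 825, 754 and 759 with TGF-β plus uridine. Every treated library stood far above every control library. The TGF-β level was 3.0-fold the control level (95% interval 2.55 to 3.52, a log2 difference of 1.58 with SE 0.10, edgeR adjusted p = 7.4e-05), and the call held without any 1 of the 9 libraries, at adjusted p of 1.1e-05 to 0.0012. The gene occupies chr9:134641774-134844843 (plus strand, GENCODE v29, GRCh38). The bases just before this start are shown because it is the most abundant chain and the one with the smallest p, with each GGGCGG box, the core that Sp1 binds, in capitals on either strand (chr9:134641553-134641773, plus strand, GRCh38.p14, without annotated exons).
COL5A1: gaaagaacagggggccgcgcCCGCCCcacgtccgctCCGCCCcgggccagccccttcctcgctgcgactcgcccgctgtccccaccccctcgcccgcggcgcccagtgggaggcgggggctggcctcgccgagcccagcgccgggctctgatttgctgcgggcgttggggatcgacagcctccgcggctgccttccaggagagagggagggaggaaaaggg

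COL5A2, the α2 chain that pairs with α1(V) in the common type V trimer, was not called. Its normalised CPM was 80.1, 127 and 176 in control, 139, 144 and 132 with TGF-β, and 127, 98.4 and 165 with uridine. The control range covered the values of both treated groups. The fold change with TGF-β was 1.08 (95% interval 0.707 to 1.66, edgeR adjusted p = 0.996). The COL5A1 to COL5A2 ratio in FPKM was 1.96, 1.39 and 1.08 in control, 3.78, 3.64 and 3.94 with TGF-β and 4.24, 4.98 and 2.99 with uridine. The mean log2 ratio was 0.52 ± 0.43 in control and 1.92 ± 0.06 with TGF-β (SD, n = 3), the groups did not overlap, and the exact permutation test (two-sided) gave p = 0.1, the smallest value that 3 against 3 libraries allow (0.26 after adjustment over 13 chain ratio tests). GC content differs between the pair, 60.3% for COL5A1 and 47.9% for COL5A2.

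COL1A1, the α1 chain of type I collagen and the usual readout of stellate cell activation, lies at chr17:50183289-50201632 (minus strand, GENCODE v29, GRCh38) and had a normalised CPM of 53.1, 43.7 and 41.5 in control, 65.6, 58.0 and 66.5 with TGF-β, and 64.0, 64.8 and 69.8 with uridine. Each TGF-β library was above each control library, by a smaller factor than for COL5A1. The fold was 1.37 (95% interval 1.14 to 1.66, log2 0.46 with SE 0.12) and missed the threshold (edgeR adjusted p = 0.082), but passed it without control 1 (adjusted p = 0.0037) and in the fit with the GC covariate (adjusted p = 0.00042). COL3A1 had 17, 31 and 28 counts in control, 64, 80 and 59 with TGF-β, and 94, 42 and 102 with uridine. The groups with TGF-β lay above control in every library, at low depth. The fold was 2.71 (95% interval 1.57 to 4.67, edgeR adjusted p = 0.065), and it passed the threshold without TGF-β plus uridine 2 (adjusted p = 0.035).

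The study measured these collagens by PCR as well. It reports that TGF-β raised COL1A1 and COL3A1 mRNA in LX-2 cells and that uridine lowered both. Whether that PCR used the sequenced cultures is not stated, and the uridine folds of the sequenced libraries are given further below. The primer pairs of the study show which chains its PCR covers. Matched to GENCODE v29 transcripts, the pair named collagen I lies in COL1A1, with the forward primer in exon 45 (chr17:50187905-50187922) and the reverse primer in exon 48 (chr17:50186730-50186748), both coding, for a product of 402 bases. Neither primer matched a COL1A2 transcript. The collagen III pair lies in exon 2 of COL3A1 (chr2:188984763-188984784 and chr2:188984823-188984845, coding), for a product of 83 bases within 1 exon. All 4 are given 5′ to 3′ in lower case.
COL1A1 forward: agggtcaccgtggcttct
COL1A1 reverse: tctgctggctcaggctctt
COL3A1 forward: ttgaaggaggatgttcccatct
COL3A1 reverse: acagacacatatttggcatggtt

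Of the remaining fibrillar genes, COL27A1 had 4.06, 4.19 and 3.04 normalised CPM in control, 5.33, 5.18 and 6.31 with TGF-β and 5.77, 7.53 and 8.27 with uridine. All treated libraries were above control, and the TGF-β fold of 1.49 did not pass (95% interval 1.06 to 2.10, edgeR adjusted p = 0.28). COL11A2, a chain of the cartilage-type fibril collagen XI, stayed at 6 to 23 counts in all libraries.

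Among the type IV genes, the pair that makes the ubiquitous basement membrane trimer rose and the other chains were not called. COL4A1 (chr13:110148963-110307233, minus strand, GENCODE v29, GRCh38) had 12.8, 19.4 and 25.1 normalised CPM in control, 55.2, 62.8 and 54.5 with TGF-β, and 58.3, 48.0 and 60.0 with uridine. Its TGF-β level was 3.01-fold the control level (95% interval 2.12 to 4.26, log2 1.59 with SE 0.22, edgeR adjusted p = 0.0046). COL4A2 (chr13:110305812-110513209, plus strand) had 60.5, 69.1 and 82.1 in control, 173, 167 and 165 with TGF-β, and 181, 161 and 179 with uridine, a 2.39-fold difference (95% interval 1.98 to 2.90, edgeR adjusted p = 0.00061). For both genes all treated libraries stood above all control libraries, and both calls held without any 1 library. COL4A1 and COL4A2 lie head to head on chromosome 13 on opposite strands, with 126 bases between their RefSeq starts (110307157 and 110307284, GRCh38.p14), an arrangement long known for type IV collagen pairs. They do not share exon bases in GENCODE v29.

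The FPKM ratio of COL4A1 to COL4A2 was 0.0875 to 0.126 in control and 0.132 to 0.155 with TGF-β. Per base of each gene's longest transcript, the same counts gave 0.208 to 0.300 and 0.313 to 0.368. Either way COL4A1 counted for less than COL4A2 in all 9 libraries. The mean log2 FPKM ratio was -3.20 ± 0.28 in control and -2.83 ± 0.12 with TGF-β (SD, n = 3; exact permutation p = 0.1, adjusted 0.26), again the smallest p this design allows.

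COL4A5 and COL4A6 are another head-to-head pair, on chromosome X with 379 bases between the nearest RefSeq starts, and COL4A3 and COL4A4 form the last such pair, on chromosome 2 with 418. None of these 4 was called in the edgeR test without covariates, whereas the GC fit called COL4A6 (adjusted p = 0.00022) and COL4A3 (adjusted p = 0.039) lower. COL4A6 had 15.3, 19.7 and 23.4 normalised CPM in control and 12.7, 13.6 and 13.8 with TGF-β, 0.686-fold the control level (95% interval 0.517 to 0.910, edgeR adjusted p = 0.20), with all TGF-β libraries below control. COL4A5 was at 9.24 to 15.4 in control and 9.28 to 10.7 with TGF-β, which overlap. COL4A3 was at 2.04 to 3.40 in control and 1.04 to 1.66 with TGF-β (log2 -1.03 with SE 0.44, adjusted p = 0.38), while its partner COL4A4 had 1 to 25 counts and was not tested. The class thus gave 2 higher, 0 lower and 3 not called of 5 tested.

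No type VI gene passed the edgeR test without covariates. COL6A1 was at 44.6, 36.0 and 32.6 normalised CPM in control, 40.1, 41.9 and 44.2 with TGF-β and 38.0, 44.6 and 39.2 with uridine, which overlap (TGF-β fold 1.12, 95% interval 0.902 to 1.38). COL6A2 had 29, 64 and 59 counts in control, 76, 181 and 144 with TGF-β and 136, 89 and 97 with uridine. Its TGF-β libraries were above control, with a fold of 2.70 (95% interval 1.53 to 4.76, edgeR adjusted p = 0.078). COL6A3, the long α3 chain, had 0, 30 and 38 counts in control, 64, 149 and 138 with TGF-β and 107, 74 and 53 with uridine. The fold of 5.53 had an interval of 1.44 to 21.2 (edgeR adjusted p = 0.22), and the call was made without control 1 (adjusted p = 0.031). DESeq2 and the fit with the GC covariate called COL6A2 and COL6A3 higher.

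COL7A1, the anchoring fibril chain of skin and other epithelia, was among the 4 highest chain genes by mean FPKM. Its normalised CPM was 76.2, 78.6 and 88.0 in control, 156, 150 and 150 with TGF-β, and 201, 178 and 274 with uridine. Both treated groups stood apart from control, and the uridine libraries stood apart from the TGF-β libraries as well. TGF-β gave a fold of 1.88 (95% interval 1.48 to 2.40, log2 0.91 with SE 0.15, edgeR adjusted p = 0.012), a call that was lost without control 2 or without any of the TGF-β libraries (adjusted p = 0.058 to 0.073). The gene occupies chr3:48564073-48595267 (minus strand, GENCODE v29, GRCh38). Its upstream bases are shown as they hold 3 GGGCGG boxes and 1 CAGACA box, the core of a SMAD element, all in capitals on either strand (chr3:48595330-48595579, minus strand, GRCh38.p14, without annotated exons).
COL7A1: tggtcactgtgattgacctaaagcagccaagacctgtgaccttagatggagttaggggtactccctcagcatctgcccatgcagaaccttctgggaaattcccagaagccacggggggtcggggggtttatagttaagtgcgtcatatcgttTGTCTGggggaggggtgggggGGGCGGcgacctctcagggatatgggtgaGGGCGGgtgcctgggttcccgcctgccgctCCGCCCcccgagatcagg

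Both multiplexin genes rose. COL15A1 (chr9:98943179-99070792, plus strand, GENCODE v29, GRCh38) had 11, 25 and 20 counts in control, 95, 75 and 84 with TGF-β, and 68, 46 and 87 with uridine, and no treated library reached down to control. The TGF-β fold was 4.62 (95% interval 2.76 to 7.71, log2 2.21 with SE 0.33, edgeR adjusted p = 0.0061), the largest among the called chain genes, and it was called without any 1 library. COL18A1, whose C-terminal fragment is endostatin, had a normalised CPM of 4.59, 4.55 and 6.23 in control, 9.36, 10.5 and 10.3 with TGF-β, and 9.95, 9.36 and 10.1 with uridine. All treated libraries were above control. The TGF-β fold of 1.96 (95% interval 1.49 to 2.58, edgeR adjusted p = 0.017) lost its call without control 2 or any TGF-β library (adjusted p = 0.064 to 0.0997). COL18A1 shares 1401 exon bases on the opposite strand with SLC19A1, which had 2813 to 3780 counts and a log2 fold change of -0.01 with TGF-β (SE 0.16). Since the strand setting of the counting is not given in the sources used here, reads from the shared bases cannot be told apart. RefSeq lists separate starts for COL18A1. The bases before the first are shown because they hold 9 GGGCGG boxes, in capitals on either strand (chr21:45404915-45405136, plus strand, GRCh38.p14, without annotated exons).
COL18A1: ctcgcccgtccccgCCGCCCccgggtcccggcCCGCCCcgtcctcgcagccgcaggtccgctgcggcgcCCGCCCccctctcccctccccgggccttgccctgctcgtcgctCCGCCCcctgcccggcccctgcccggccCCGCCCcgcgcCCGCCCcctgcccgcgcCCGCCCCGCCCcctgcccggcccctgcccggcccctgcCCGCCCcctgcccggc

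None of the 4 FACIT genes was called with TGF-β by edgeR without covariates. COL16A1 had 8.44, 6.45 and 6.65 normalised CPM in control, 11.7, 12.4 and 10.4 with TGF-β, and 15.3, 15.6 and 17.6 with uridine, so the 3 groups were stepped without overlap. Its TGF-β fold of 1.61 just missed the threshold (95% interval 1.25 to 2.07, edgeR adjusted p = 0.059; 0.0063 without control 1). COL9A3, a chain of the cartilage FACIT collagen IX, had 5.72, 5.33 and 5.29 in control, 3.35, 2.98 and 2.51 with TGF-β, and 1.56, 2.67 and 2.73 with uridine. Its fold with TGF-β was 0.541 (95% interval 0.362 to 0.808, edgeR adjusted p = 0.13). Its partner COL9A2 had 9.75, 5.41 and 4.34 in control and 3.29 to 4.96 with TGF-β, which overlap. COL12A1, with the lowest GC content of the expressed chains (46.3%), had 8.26, 18.3 and 30.3 in control, a wider span than the 13.6 to 18.8 with TGF-β that lies inside it.

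The transmembrane genes and COL26A1 were scarce. COL17A1, a hemidesmosome protein, had 9 to 24 counts in control, 24 to 47 with TGF-β and 41 to 64 with uridine. COL13A1 had 13 to 18, 15 to 33 and 15 to 29 counts, and COL26A1 5 to 8, 5 to 18 and 6 to 14. In the edgeR test without covariates none of the 3 was called in any comparison (the GC fit called COL17A1 higher against control in both treated groups, at adjusted p = 0.029 and 0.0049), and each of them overlapped between control and TGF-β libraries.

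**Figure D3:**
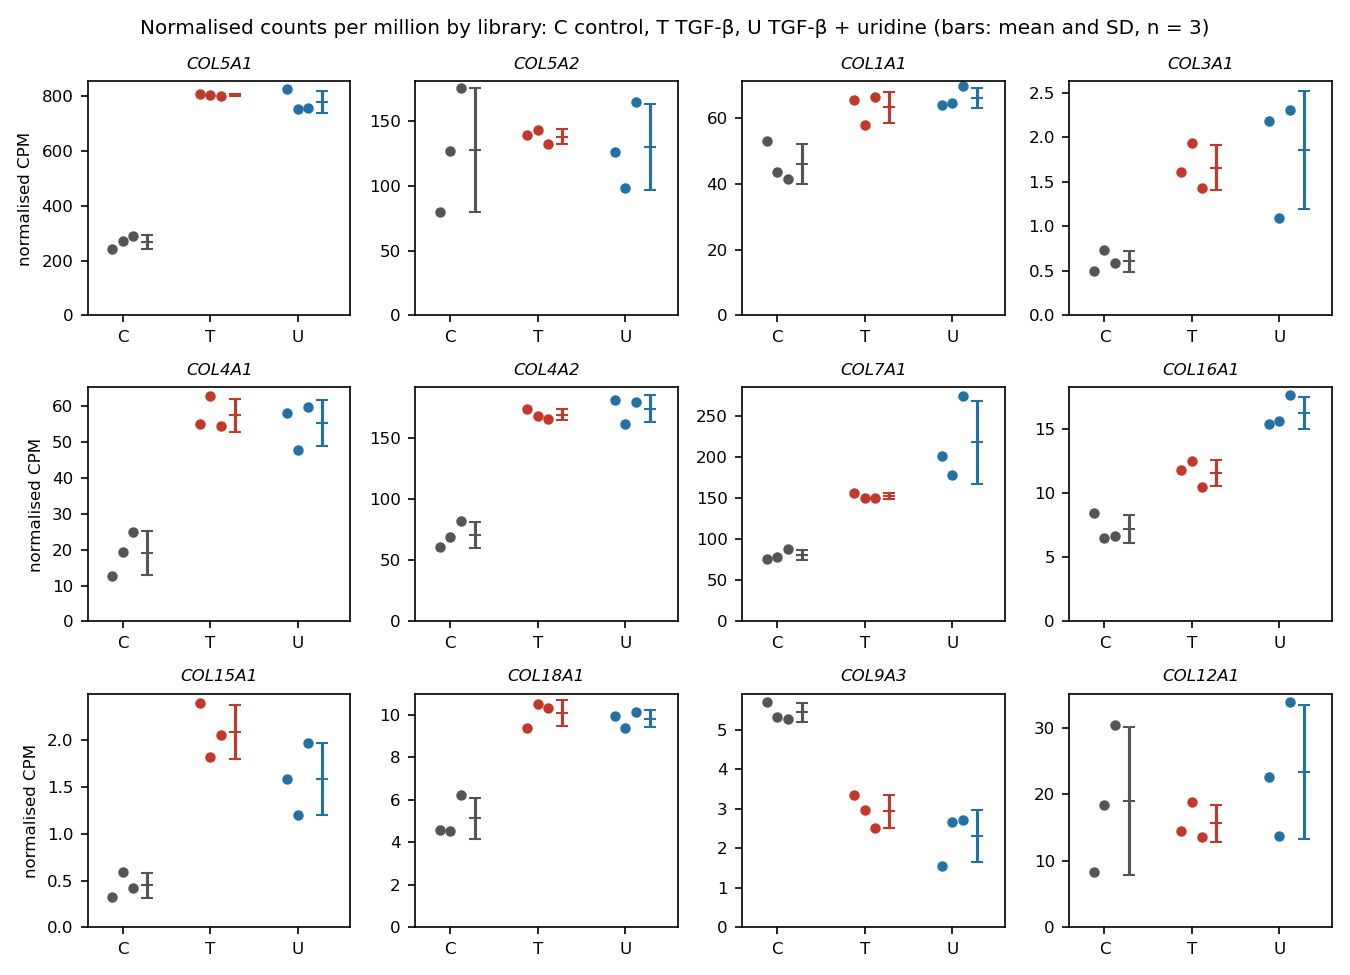
Normalised CPM (linear axes from 0) of 12 collagen chain genes in each library, with mean and SD beside the 3 points of each group. COL5A1, COL4A1 and COL4A2 show treated points well above control, COL9A3 shows them below, and COL5A2 and COL12A1 show a control spread (80.1 to 176 and 8.26 to 30.3) that covers the TGF-β points.

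Summed over the 37 genes, collagen chains took 0.0525%, 0.0757% and 0.0971% of all counts in control 1 to 3, 0.148%, 0.151% and 0.151% with TGF-β, and 0.166%, 0.134% and 0.181% with uridine. The control libraries differed among themselves by more than counting error, and still lay below all treated libraries. The 95% Wilson binomial intervals at the ends were 0.0518% to 0.0532% and 0.0961% to 0.0980%, and cover counting error only. The group means were 0.0751% ± 0.0223, 0.150% ± 0.0021 and 0.160% ± 0.0240 (SD, n = 3). In FPKM the sums were 94.9 ± 26.2, 173 ± 2.24 and 184 ± 27.5. The 6 highest chains made up 85.1% to 85.4% of the summed collagen FPKM in control and 89.5% to 90.9% in the treated libraries. The share of COL5A1 was 26.8% ± 0.77 in control, 43.0% ± 0.099 with TGF-β and 40.4% ± 3.24 with uridine, while that of COL5A2 was 19.2% ± 5.22, 11.4% ± 0.43 and 10.2% ± 1.89. COL1A1 made up 8.47% ± 2.06, 6.13% ± 0.46 and 6.20% ± 0.35.

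**Figure D4:**
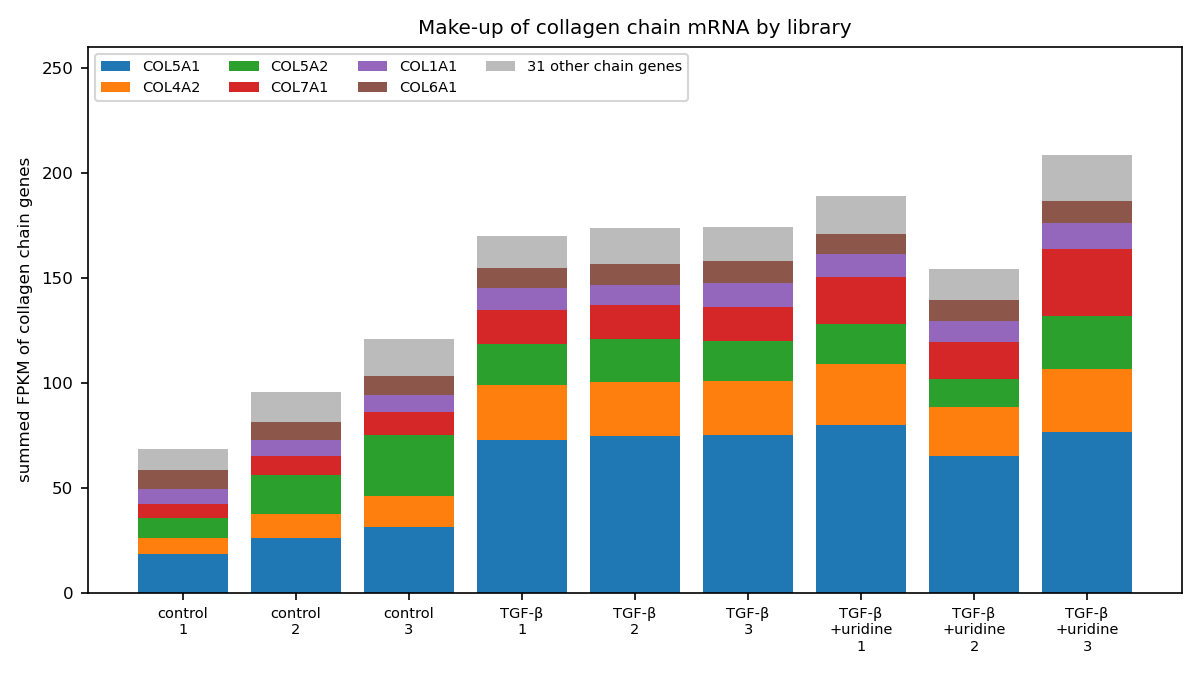
Summed FPKM of the 37 collagen chain genes in each library, stacked by the 6 highest genes and the other 31. The bars rise from 68.5, 95.4 and 121 in control to 170.0 to 174 with TGF-β and 154 to 208 with TGF-β plus uridine, and the COL5A1 block grows most.

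The second comparison asked what uridine changed in cells that had received TGF-β. No chain gene was called higher (edgeR, 0% of all genes tested) or lower (0.0448% of all genes), and DESeq2 called none either, beside 0.331% and 0.518% of all genes with a DESeq2 adjusted p. At an unadjusted p under 0.05, 3 chain genes were higher and 0 lower, beside 4.65% and 4.14% of all genes. The same number of chain genes, 3, had all uridine libraries above all TGF-β libraries and 0 had them below, where 12.8% of all genes lay above and 12.8% below. These were COL7A1, COL16A1 and COL4A3 in both cases. The median log2 fold change was -0.02 over the 24 chain genes and 0.02 over all genes tested. Of the 24 values, 11 were above 0, beside 7149 of all 13384.

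For the chains that TGF-β raised, other than COL7A1, and for COL1A1 and COL3A1, the interval of the uridine difference included no change. The fold with uridine against TGF-β alone was 0.969 for COL5A1 (95% interval 0.829 to 1.13), 1.03 for COL4A2 (0.852 to 1.24), 0.964 for COL4A1 (0.686 to 1.35) and 0.976 for COL18A1 (0.744 to 1.28). COL1A1 had a fold of 1.04 (0.868 to 1.26) and COL3A1 a fold of 1.12 (0.667 to 1.89). Among these genes, the intervals of COL5A1, COL4A2 and COL1A1 reached down to 0.829, 0.852 and 0.868 of the TGF-β level. Those of COL3A1 and COL15A1 (fold 0.761) reached further, to 0.667 and 0.472. Each interval is for a single gene, without adjustment, and covers only the spread between these libraries, which may be technical.

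COL7A1, COL16A1 and COL4A3, the 3 genes with an unadjusted p under 0.05, were higher with uridine but not called by edgeR without covariates. In all 3 the uridine libraries lay above all TGF-β libraries. This held for 12.8% of all genes tested, so the separation does not set the chain genes apart. COL7A1 was 1.43-fold higher (95% interval 1.12 to 1.82, edgeR unadjusted p = 0.0083, adjusted p = 0.36), in 3 of 3 libraries above all TGF-β libraries. COL16A1 was 1.40-fold higher (1.09 to 1.80, adjusted p = 0.40), also in 3 of 3 libraries. COL4A3 was 2.01-fold higher (1.01 to 3.98, adjusted p = 0.55) with 74, 72 and 214 counts against 60, 43 and 68, so that 1 uridine library carried most of the difference. Without each library in turn, the log2 fold change ran from 0.36 to 1.26 for COL4A3, from 0.32 to 0.64 for COL7A1 and from 0.42 to 0.55 for COL16A1, with no call. COL12A1 had a larger fold than COL7A1, 1.49, with an interval of 0.735 to 3.04, and its libraries overlapped. The lowest folds were 0.655 for COL6A3 (0.188 to 2.28), 0.761 for COL15A1 (0.472 to 1.23) and 0.784 for COL6A2 (0.451 to 1.36), which overlapped as well. With the GC slope as a covariate, COL7A1, COL16A1, COL12A1 and COL4A5 were called higher and none lower, beside 9.99% and 9.09% of all genes, at log2 fold changes of 0.49, 0.50, 0.43 and 0.38. The highest COL7A1 value, 274 normalised CPM, came from TGF-β plus uridine 3, the library with the lowest GC slope of that group (-2.69). A negative slope means lower values at high GC content, and COL7A1 has a GC content of 64.8%. The part of the slope in this value was not tested.

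The third comparison set the TGF-β plus uridine libraries against control and shares its control libraries with the first. It called 10 chain genes higher and 1 lower, beside 2.89% and 2.44% of all genes tested, with a median log2 fold change of 0.82 against -0.01 over all genes. The genes higher were the 6 called with TGF-β alone and COL1A1, COL3A1, COL16A1 and COL27A1. Their folds, with those of TGF-β alone in brackets, were 2.90 (3.0) for COL5A1, 2.90 (3.01) for COL4A1, 2.46 (2.39) for COL4A2, 2.69 (1.88) for COL7A1, 3.51 (4.62) for COL15A1, 1.91 (1.96) for COL18A1, 1.44 (1.37) for COL1A1, 3.04 (2.71) for COL3A1, 2.25 (1.61) for COL16A1 and 1.91 (1.49) for COL27A1. The edgeR adjusted p of the added calls was 0.039 for COL1A1, 0.032 for COL3A1, 0.0042 for COL16A1 and 0.043 for COL27A1. A call in this comparison and none in the first does not show a difference between the treatments, and the direct comparison of uridine with TGF-β alone called none of these 4 in edgeR without covariates or in DESeq2, and COL16A1 in the GC fit (log2 0.50, edgeR adjusted p = 0.0087).

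COL9A3 was the gene that fell, to 0.426 of control (95% interval 0.284 to 0.639, edgeR adjusted p = 0.028). It shares 45 exon bases on the opposite strand with TCFL5, whose log2 fold change was 0.09 (SE 0.12). Several of these calls lay near the threshold. COL1A1 and COL27A1 were called in 1 of the 9 fits that left out a library, COL3A1 and COL9A3 in 2, while the log2 fold changes ran from 0.45 to 0.62, 0.80 to 1.07, 1.42 to 1.87 and -1.37 to -1.01 over these fits in the same order. The count of genes higher fell to 6 without control 2 and to 5 without TGF-β plus uridine 1 or 3. With the GC covariate 13 chain genes were higher and 3 lower, beside 17.8% and 13.3% of all genes.

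Genes that make and handle collagen were read from 2 fixed lists. Of 39 genes of collagen biosynthesis, 32 were tested, and 5 rose and 0 fell with TGF-β, beside 2.42% and 0.964% of all genes tested (median log2 fold change 0.11, all genes -0.05). LOX, the lysyl oxidase that starts crosslinking, went from a mean of 6.86 to 28.3 normalised CPM (log2 fold change 2.04, edgeR adjusted p = 0.00023). CREB3L1, a membrane-bound transcription factor that drives collagen secretion genes, went from 15.8 to 48.9 (1.63, adjusted p = 0.0036). The prolyl hydroxylase subunits P4HA3 (0.259 to 1.38) and P4HA2 (45.9 to 77.4) rose by 2.42 and 0.76 on the log2 scale, and BMP1, which trims procollagen and is named here after its value was seen, rose by 0.55 (adjusted p = 0.022). Among abundant members, SERPINH1, P4HB and PPIB, chaperones and folding enzymes of procollagen, had log2 values of 0.03, 0.11 and 0.02 and were not called. CRTAP (-0.29) and PLOD1 (0.24), also abundant, were not called either (edgeR adjusted p = 0.30 and 0.22).

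Uridine added to TGF-β changed 0 of these 32 in either direction (edgeR adjusted p, beside 0% and 0.0448% of all genes, and DESeq2 also 0). Against control, TGF-β plus uridine gave 5 higher and 0 lower, beside 2.89% and 2.44% of all genes. Of these, LOX (log2 fold change 1.65), P4HA3 (1.67), CREB3L1 (1.19) and BMP1 (0.43) were also called with TGF-β alone and P3H1, a prolyl 3-hydroxylase, was not (0.52, edgeR adjusted p = 0.017). Of 18 collagen receptors and collagen-degrading enzymes, 11 were tested, and 2 rose and 0 fell with TGF-β, beside 2.42% and 0.964% of all genes. MMP2, a gelatinase, went from 60.8 to 154 normalised CPM (log2 fold change 1.34, edgeR adjusted p = 0.00024), and MRC2, an endocytic collagen receptor, from 11.4 to 22.7 (1.00, adjusted p = 0.046). Both were also called with TGF-β plus uridine, none with uridine against TGF-β, and the collagen-binding integrin and discoidin receptor genes ITGA1, ITGA2, ITGB1, DDR1 and DDR2 were not called in any comparison.

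RefSeq promoter windows (GRCh38.p14, 250 bases before to 50 after a start) were at hand for 27 of the 37 chain genes, 34 windows in all, and for 19 of the 24 expressed genes with 25 windows. The motif GGGCGG on either strand was in 17 of the 25 windows of expressed genes (68%), against 45% of all 35116 windows. The other motifs were TATAAA (20% against 11.5%), CCAAT (28% against 34.6%), CAGACA (12% against 16.9%), TGANTCA (0% against 7.71%) and GTCTAGAC (0% against 0.202%), each searched on both strands, with overlaps between motifs allowed. CAGACA was in windows of COL4A6, COL7A1 and COL16A1. These are counts of letters in a short window, and they do not show binding. Windows of 1 gene overlap in part, as do windows of head-to-head type IV genes such as COL4A1 and COL4A2. A motif can therefore be counted for more than 1 window.

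The chain genes are rich in GC, with a median of 61.1% against 49.3% for all tested genes with a known value. Between control 1 and control 3, the chains of lowest GC content were higher in control 3. COL12A1 (46.3% GC) was higher in control 3 by 1.88 on the log2 scale of normalised CPM, COL5A2 (47.9%) by 1.14 and COL4A3 (49.2%) by 0.73, whereas COL9A2 (64.8%) differed by -1.17. COL17A1, with 9 to 24 counts, differed by -1.91 at a GC content of 55.9%. Across 23 chain genes, Pearson's r of GC content with this log2 ratio was -0.47, and it was -0.72 across 12319 genes, a description over genes of the same libraries. The corresponding values between TGF-β plus uridine 3 and 2 were -0.61 and -0.57. The r of GC content with the TGF-β log2 fold change was 0.17 over the chain genes and 0.06 over all genes.

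**Figure D5:**
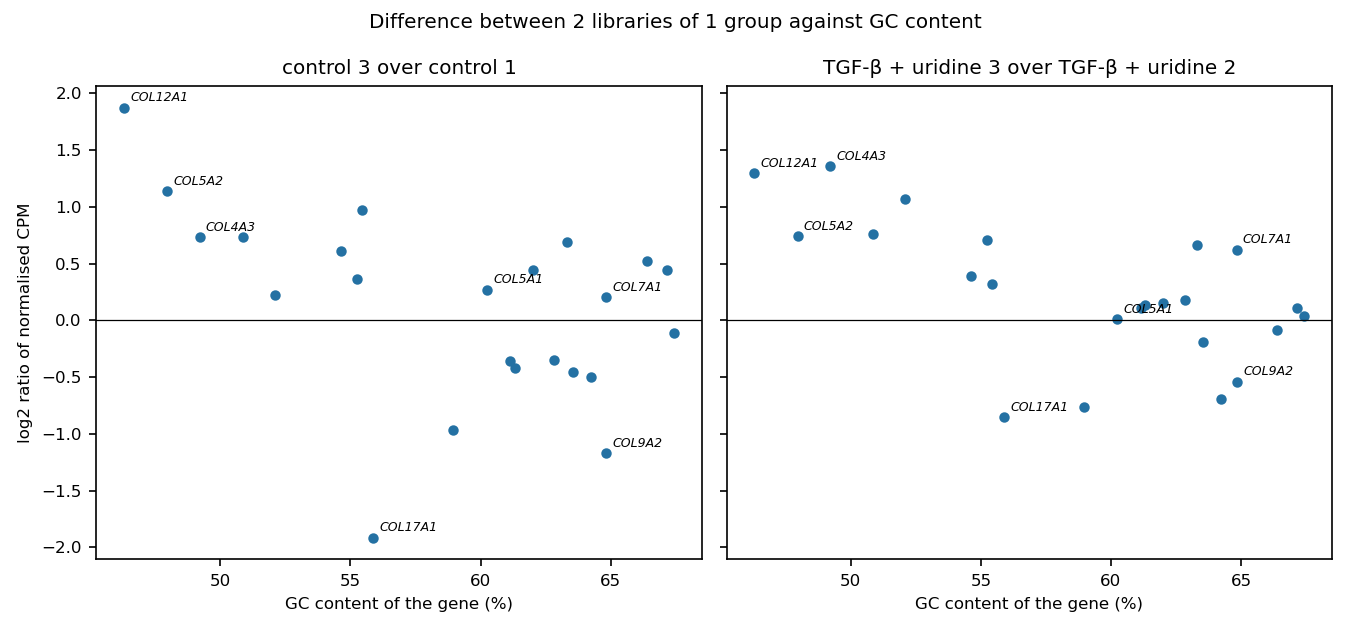
Log2 ratio of normalised CPM between the libraries of 1 group with the most different GC slopes (control 3 over 1, TGF-β plus uridine 3 over 2) against the GC content of each of 23 chain genes. COL12A1 and COL5A2 at the left lie at 1.88 and 1.14 in the control panel, and the GC-rich genes at the right lie on both sides of 0. COL6A3 is left out, as control 1 had 0 counts.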

How the data were processed

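RNA-seq covered 9 libraries of LX-2 cells in 3 groups taken from the labels. According to the deposited labels, reads were trimmed with fastp, aligned with HISAT2 to GRCh38.p13 and counted with HTSeq, with R 3.2.0 among the tools, and versions of the aligner and counter and the strand setting are not given in the sources used here. The authors deposited raw counts per gene and FPKM values (counts over 1 fixed gene length and the library total). Here the counts were tested with edgeR 4.0.16 (R 4.3.3): genes passing filterByExpr (minimum count 10), TMM scaling, 1 quasi-likelihood model of 3 groups without covariates, two-sided tests with Benjamini-Hochberg adjustment over 13384 genes, threshold 0.05, and the study names no test for these data. FPKM served levels between genes. Normalised CPM uses TMM-scaled totals (factors 0.820 to 1.16). Common biological coefficient of variation was 0.289. GC content came from GENCODE v29 transcripts (92.0% of tested genes). Chain ratios used exact permutation tests of 3 against 3 libraries. The scripts were tested on simulated data with less spread between libraries than here and without GC slopes. That test therefore does not show how they perform on these data. Alternatives were DESeq2 1.42.0, limma 3.58.1 on log2 FPKM, other scalings and filters, a replicate block, a GC covariate and fits without each library. Totals were 40539751 to 41467124 counts per library. Mitochondrial genes were taken from RefSeq as those on chromosome MT. Values in every library are given for called chains, COL1A1, COL1A2, COL3A1, partners of called chains and the 5 highest, and from the other lists the 4 called genes with the largest change per comparison are named. The chain genes and all lists were chosen with earlier results of these data known.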

Additional observations from a re-analysis of the deposited data

How the results depend on the processing

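For TGF-β against control, the count of chain genes higher (6) was 4 to 7 under the other scalings, filters, limma settings and the fold threshold, 10 with DESeq2, 13 with the GC slope covariate, 12 with that covariate and the replicate block, and 4 to 9 without each library (4 without control 2 or any TGF-β library, 9 without control 1). The count lower (0) was 1 with DESeq2 and 1 with limma on log2(FPKM + 1) at a mean FPKM of at least 0.5, 4 with the GC covariate, 3 with the covariate and the block, and 0 to 1 without each library. For uridine added to TGF-β, 0 chain genes were higher except 4 with the GC covariate and 3 with the covariate and the block, and 0 were lower in all alternatives. For TGF-β plus uridine against control, 10 became 5 with only the groups compared in the model, 7 with the replicate block, and 5 to 11 without each library. The 1 lower became 0 with only the groups compared, 0 with the block, 3 with the GC covariate with or without the block, and 0 to 2 without each library. The cause of these shifts was not tested. The share over all genes was taken only for the main, DESeq2 and GC covariate fits. Counts under the other settings therefore cannot be read as particular to the chain genes. The labels do not say whether the replicate numbers pair the libraries. Same-numbered correlations of deviations ran from -0.21 to 0.56, and control 1 correlated best with TGF-β plus uridine 2. These 2 libraries had the highest GC slopes of their groups (5.65 and 2.28), so the correlations cannot decide on pairing. The block gave 6, 0 and 7 genes higher in the 3 comparisons. COL3A1 with uridine (log2 0.17) turned to -0.014 without TGF-β plus uridine 3, in a range of -0.014 to 0.43 without each library. COL5A1, COL4A1 and COL4A2 were called against control in all 12 other settings and all 9 fits without a library. Leaving mitochondrial genes out of the total raised the TGF-β collagen share from 0.150% to 0.171%. RLE and upper-quartile scaling moved the median of all genes by at most 0.017 (log2), and the GC covariate moved it by at most 0.06. COL3A1 and COL15A1 had only 17 to 102 and 11 to 95 counts per library, so their values carry more counting error than those of abundant chains.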
